A study of Mus musculus with 6 samples.

Results

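Ubiquitin ligase genes of the TRIM, Kelch-like (Klhl and Kbtbd) and ASB families were examined in muscle stem cells (MuSCs), together with Fbxo32. A gene was included when its symbol began with Trim, Klhl, Kbtbd or Asb followed by a number, or was Fbxo32. The rule itself used no measured value, but it was chosen with earlier results of these data known. It gave 96 of the 18943 genes measured. The 96 genes comprised 43 Trim, 30 Klhl, 9 Kbtbd and 13 Asb genes and Fbxo32, and all were protein coding in the deposited table. Of 132 protein-coding genes in the mouse GENCODE annotation that meet the rule, the others were not analysed here.

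The cells were FACS-purified MuSCs of wild-type C57BL/6 mice aged 8 weeks, cultured for 5 days. The DMSO group received the solvent alone, the ET-3 group endothelin-3 and the NT group neurotensin, both of them peptides that act on G protein-coupled receptors. Each ligand was given at 100 nM by the labels. The paper states higher concentrations, and which applied to these libraries is not settled here. RNA-seq libraries were available for 2 samples per group, although the series text speaks of triplicates. The labels do not say whether the 2 libraries of a group came from separate cultures or animals, so p-values measure only the spread between these libraries, which may be technical.

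Ubiquitin ligases attach ubiquitin to chosen proteins and so mark many of them for the proteasome. Most TRIM proteins are single-chain ligases with a RING domain, while Kelch-like and KBTBD proteins bring substrates to the cullin Cul3, and ASB proteins bring them to Cul5 through elongins. Fbxo32, also called atrogin-1 or MAFbx, is the F-box protein that serves a Cul1 ligase in muscle wasting. Several members of these families are made mainly in muscle fibers, where they sit at the sarcomere or the cell membrane, control the turnover of contractile proteins, or cause myopathy when mutated.

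The members that carried the largest changes belonged to a list of muscle-enriched members, drawn up from general knowledge with earlier results of these data known. The promoters of 4 of them are shown, since they stand for the 3 families and for the presence and absence of the E-box CANNTG, the motif that MyoD-type factors bind. The sequences are those of RefSeq for build GRCm38.p6. Each window runs from 250 bases before to 50 bases after a transcription start, 5′ to 3′ on the strand of the gene, and capitals mark every CANNTG. Trim63 lies at chr4:134314870-134315169 (+), Klhl41 at chr2:69669870-69670169 (+), the outer Asb2 start at chr12:103355952-103356251 (-), the inner Asb2 start at chr12:103338341-103338640 (-) and Klhl31 at chr9:77636482-77636781 (+).
Trim63: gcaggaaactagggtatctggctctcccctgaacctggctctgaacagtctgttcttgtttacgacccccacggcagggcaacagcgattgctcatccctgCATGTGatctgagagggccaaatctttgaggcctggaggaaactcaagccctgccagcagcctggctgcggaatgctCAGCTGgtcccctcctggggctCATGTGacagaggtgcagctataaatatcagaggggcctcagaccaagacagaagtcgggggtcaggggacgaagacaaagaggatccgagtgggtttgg
Klhl41: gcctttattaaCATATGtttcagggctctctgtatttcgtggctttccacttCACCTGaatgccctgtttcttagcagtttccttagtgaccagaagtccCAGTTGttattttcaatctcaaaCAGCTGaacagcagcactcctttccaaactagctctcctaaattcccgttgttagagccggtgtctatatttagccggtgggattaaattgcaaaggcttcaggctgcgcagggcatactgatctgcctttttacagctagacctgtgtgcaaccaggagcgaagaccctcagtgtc
Asb2, outer start: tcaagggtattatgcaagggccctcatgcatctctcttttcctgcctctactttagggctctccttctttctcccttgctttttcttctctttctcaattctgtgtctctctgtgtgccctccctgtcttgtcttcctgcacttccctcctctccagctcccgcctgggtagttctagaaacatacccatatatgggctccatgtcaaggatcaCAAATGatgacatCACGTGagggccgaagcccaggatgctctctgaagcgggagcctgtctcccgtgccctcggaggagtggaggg
Asb2, inner start: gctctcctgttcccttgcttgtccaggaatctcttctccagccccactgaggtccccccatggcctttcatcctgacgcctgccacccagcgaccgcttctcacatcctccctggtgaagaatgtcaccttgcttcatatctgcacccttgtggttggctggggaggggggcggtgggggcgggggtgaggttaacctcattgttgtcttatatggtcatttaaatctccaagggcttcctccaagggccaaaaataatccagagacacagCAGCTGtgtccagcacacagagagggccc
Klhl31: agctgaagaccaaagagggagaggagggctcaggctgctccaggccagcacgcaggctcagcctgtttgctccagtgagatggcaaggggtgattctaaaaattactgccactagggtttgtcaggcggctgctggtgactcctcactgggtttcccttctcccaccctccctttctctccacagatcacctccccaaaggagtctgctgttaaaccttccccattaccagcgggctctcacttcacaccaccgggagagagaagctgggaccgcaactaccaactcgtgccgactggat

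Trim63 had 3 E-boxes in this window and Klhl41 had 4, and in each gene 1 of them read CAGCTG, called the central-GC E-box here. The outer Asb2 window held 2 E-boxes, and the inner one held 1, which was of the central-GC form. Klhl31 held none, which says only that these letters do not occur in this window. Promoter windows were given for 77 of the 96 members. Both motifs equal their own reverse complement, so the search covered both strands, and every central-GC E-box is also counted as an E-box. An E-box occurred in 94.7% of the 19 windows of 14 tested muscle-enriched members, in 55.1% of the 78 windows of 54 other tested members, and in 72.3% of all 32851 mouse promoter windows. The central-GC form occurred in 42.1%, 25.6% and 16.3% of these windows. Genes with several starts count more than once in these shares, and a match describes the letters of the window and is neither a binding site nor a cause.

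As a whole, the 96 members took up 0.595% and 0.587% of all values in the DMSO libraries, 0.476% and 0.490% in the ET-3 libraries, and 0.486% and 0.489% in the NT libraries. The deposited values are reads per gene that had been scaled by 1 factor per library and rounded, and they are used here as a signal. The summed value of the muscle-enriched members was 7561 and 7877 in the DMSO pair, 1343 and 1385 in the ET-3 pair, and 1248 and 1174 in the NT pair. The summed value of the other 76 members was 19624 and 19146 in the DMSO pair, 19240 and 19656 in the ET-3 pair, and 19456 and 19443 in the NT pair, so that these ranges overlapped. As shares of the library total they did not, at 0.429% and 0.416% in the DMSO pair and 0.445% to 0.461% with the ligands.

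Each library held between 4214458 and 4600575 units of signal, which correspond to between 3628952 and 5396233 reads on genes, and a value of 100 carried a counting error of 8.84% to 10.9%. Within each treated pair the libraries differed about as much as repeated sampling of reads would give. A chi-square per gene averages 1 when the same RNA is sampled again, and its mean was 0.894 between the ET-3 libraries, 0.967 between the NT libraries and 1.44 between the DMSO libraries, and over the family members alone it was 1.05, 0.945 and 2.38. Between the DMSO libraries its median was 0.553 over the members and 0.534 over all genes, so the higher mean does not describe the typical member. Markers of MuSCs and myoblasts had a summed value of 8281 to 10485 over 11 genes in the 6 libraries, and Pax7 lay at 857 and 1070 in the DMSO pair and between 1599 and 1754 with the ligands. Within this list Cd34 read 5 and 1 in the DMSO pair and 264 to 330 with the ligands, Cdh15 read 1547 and 1746 against 436 to 496, and Calcr read 0 to 3 throughout. The summed value of 17 genes of muscle differentiation, such as Myog and Myh3, was 21537 and 23822 in the DMSO pair and 486 to 656 with the ligands. Of the markers of other cells, 4 endothelial genes summed to 24 and 12 in the DMSO pair and to 85 to 107 with the ligands. Tek read 1 to 2 against 42 to 70, Kdr 16 and 6 against 23 to 26, Pecam1 6 and 3 against 7 to 15, and Cdh5 0 to 5 throughout. The 5 smooth muscle and pericyte genes summed to 2129 and 2537 against 744 to 912, with Notch3 at 1397 and 1773 against 284 to 409, Rgs5 at 117 and 150 against 2 to 5, and Myh11 and Kcnj8 at 0 to 4. Of the Schwann cell genes, Ncam1, which myoblasts also express, read 3326 and 3513 against 1649 to 1785, while 3 fibroadipogenic genes summed to 56 to 89 and 2 macrophage genes to 21 to 45 in all libraries. The fibroadipogenic genes moved apart, with Dcn at 9 and 17 against 0 to 2, Ly6a at 27 and 18 against 37 to 52, and Pdgfra at 20 and 30 against 26 to 44. The part of these markers in the results that follow was not tested. In bulk RNA, fewer differentiated cells and less RNA per such cell cannot be told apart.

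Differential expression was tested with limma on log2(value + 1) for the 13921 genes whose values averaged 5 or more. A gene is said to be called, to rise or to fall, when its Benjamini-Hochberg adjusted p over all genes tested was at most 0.05 and its change was at least 2-fold. Of the 96 members, 85 could be tested. The other 11 (Klhl6, Klhl10, Trim6, Trim10, Trim12a, Trim17, Trim29, Trim69, Kbtbd13, Asb10 and Asb14) reached at most a value of 8 in any library. Under ET-3, 4 members rose and 21 fell, or 4.71% and 24.7% of those tested, while 6.62% of all genes tested rose and 14.9% fell. Under NT, 5 members rose and 18 fell, or 5.88% and 21.2%, while 7.3% of all genes tested rose and 13.2% fell. With the adjusted p alone, 20 members were higher and 42 lower under ET-3 (30.6% and 33.2% of all genes tested), and 24 were higher and 35 lower under NT (29.7% and 32.5% of all genes tested). The tested members had a median log2 fold change of -0.34 (ET-3) and -0.21 (NT), and that of all genes tested was -0.01 in both comparisons.

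The 2 comparisons share their DMSO libraries. In them, 18 members fell under both ligands, 3 rose under both, 3 fell under ET-3 alone, 1 rose under ET-3 alone and 2 rose under NT alone. These counts are 21.2%, 3.53%, 3.53%, 1.18% and 2.35% of the tested members, and the same classes held 12.5%, 5.85%, 2.41%, 0.769% and 1.44% of all genes tested. The other 58 tested members were called in neither comparison, and for 47 members the 95% intervals of both changes lay within 2-fold of DMSO. In the next fit only members were counted, so no share of all genes stands beside its counts. When the treated pairs were averaged and counted as 1 sample each, 2 members rose and 19 fell under ET-3, and 3 rose and 17 fell under NT.

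**Figure D1:**
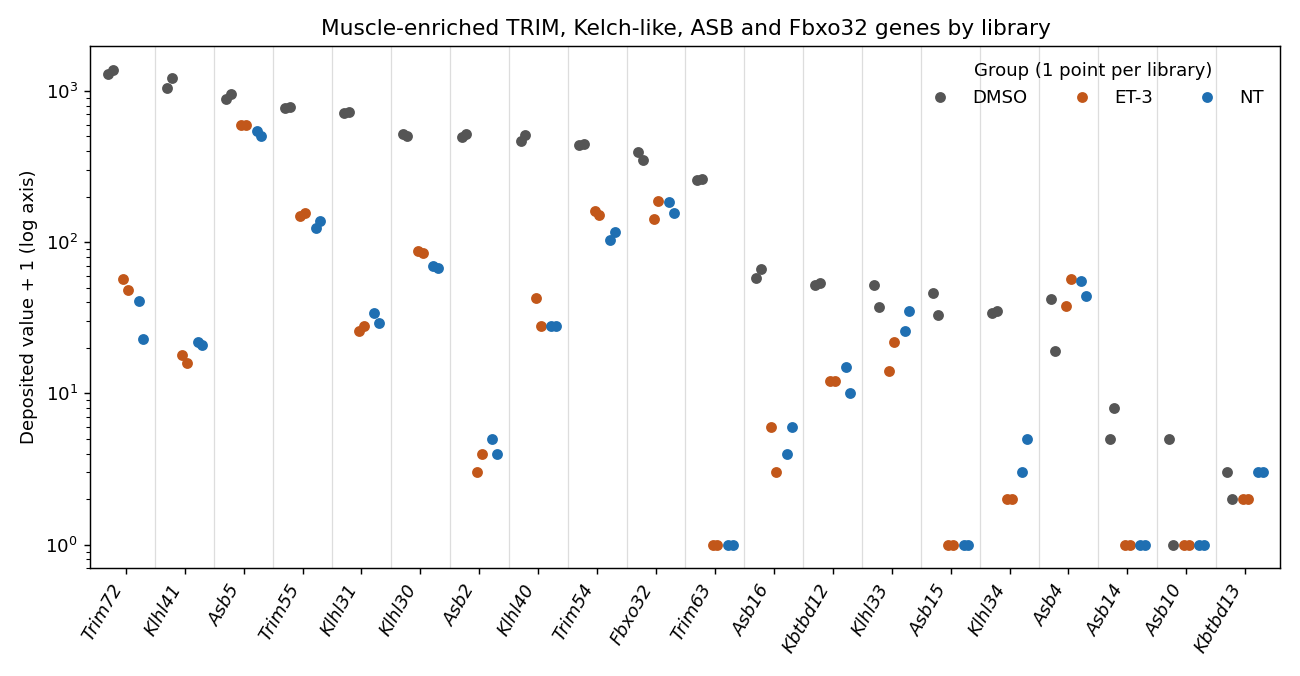
Deposited value plus 1 on a log axis for the 20 measured muscle-enriched members, ordered by their mean over the DMSO pair, with 1 point per library and colors for DMSO, ET-3 and NT. In 16 of the 17 members that could be tested, all 4 treated libraries lay below both DMSO libraries, and in Asb4 they did not.

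The list of muscle-enriched members held 24 genes, of which 20 were measured and Klhl38, Asb11, Asb12 and Asb18 were not analysed here. Of the 17 that passed the filter on low values, 15 fell under ET-3 and 14 under NT, and none rose. The median of their log2 fold changes was -3.81 (ET-3) and -3.15 (NT), and with genes at 0 set to their bound it was -3.49 and -3.15. Outside this list, 68 members were tested, with a median of -0.14 under ET-3 and 0.00 under NT. Of these, 4 rose and 6 fell under ET-3 (5.88% and 8.82%, beside 6.62% and 14.9% of all genes tested). Under NT, 5 rose and 4 fell (7.35% and 5.88%, beside 7.3% and 13.2% of all genes tested). The filter took the mean over all 6 libraries, so a gene with reads in DMSO alone could enter only as one that differs, and these counts describe the list and support nothing further. The distribution of the values by library is given in the plot of muscle-enriched members.

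Among the muscle RING-finger genes, which encode sarcomere-bound TRIM ligases, Trim63 (MuRF1, chr4:134315120-134329629, GRCm38) had values of 256 and 260 in the DMSO libraries and 0 in each of the 4 treated libraries. It thereby separated the groups fully. Against a floor of 3 reads per library, Trim63 was at least 75.3-fold lower in the ET-3 pair and at least 105-fold lower in the NT pair. It passed the filter through its DMSO values alone, so it could enter only as a gene that differs. Its p-value is therefore not given as support. The same holds for the calls of Asb2, Asb15, Asb16, Klhl34 and Klhl3 below. Its relative Trim55 (MuRF2, chr3:19644474-19692421) had values of 772 and 780 in the DMSO pair, 149 and 156 in the ET-3 pair, and 123 and 137 in the NT pair. The log2 fold changes of Trim55 were -2.34 ± 0.08 (SE, n = 2 per group) and -2.57 ± 0.08. Trim54 (MuRF3, chr5:31116712-31137630), which binds microtubules in muscle cells, read 436 and 448 in the DMSO pair, 160 and 151 in the ET-3 pair, and 103 and 116 in the NT pair. Thus all 3 muscle RING-finger genes fell under both ligands, Trim63 to 0 and Trim54 by the least, with log2 fold changes of -1.50 ± 0.09 and -2.01 ± 0.09. Trim72 (MG53, chr7:128003949-128011033), which acts in the resealing of torn muscle membranes, gave 1296 and 1382 in the DMSO pair, 56 and 47 in the ET-3 pair, and 40 and 22 in the NT pair. Per kilobase of exon it was the highest of all members in the DMSO libraries, at a value of 600 per kilobase, and it fell to 23.1 in the ET-3 pair and 13.9 in the NT pair.

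The Kelch-like members of muscle fell as well. Klhl41 (chr2:69670120-69684230), a sarcomere-associated protein whose loss causes nemaline myopathy, had values of 1049 and 1211 in the DMSO pair, 17 and 15 in the ET-3 pair, and 21 and 20 in the NT pair, that is 66.5-fold and 52.5-fold lower on the log2(value + 1) scale. Klhl40 (chr9:121777607-121783818), a close relative that stabilizes the thin-filament proteins nebulin and Lmod3, read 467 and 508 in the DMSO pair, 42 and 27 in the ET-3 pair, and 27 and 27 in the NT pair. Klhl31 (chr9:77636500-77660127), a muscle protein tied to the turnover of filamin C, gave 713 and 720 in the DMSO pair, 25 and 27 in the ET-3 pair, and 33 and 28 in the NT pair. In these 3 genes every treated library was far below both DMSO libraries, and the largest log2 fold change was that of Klhl41, at -6.05 ± 0.15 under ET-3 and -5.71 ± 0.15 under NT (limma, Benjamini-Hochberg adjusted p = 1.83e-09 and 2.99e-09). Klhl30 fell from 517 and 504 to 87 and 84 in the ET-3 pair and to 69 and 66 in the NT pair. Klhl34, the least abundant of those that fell under both ligands, went from 33 and 34 to 1 and 1 in the ET-3 pair and to 2 and 4 in the NT pair. From the recovered reads, Klhl34 was 33.5-fold lower in the ET-3 pair (95% interval 7.77 to 247, counting error only) and 11.0-fold lower in the NT pair (5.34 to 30.2). Kbtbd12 also fell under both ligands, with 51 and 53 against 11 and 11 in the ET-3 pair and 14 and 9 in the NT pair. Klhl33 differed from the rest, with 51 and 36 in the DMSO pair, 13 and 21 in the ET-3 pair, and 25 and 34 in the NT pair. It fell under ET-3, with a log2 fold change of -1.32 ± 0.31, and missed the call under NT, at -0.54 ± 0.31 (limma, Benjamini-Hochberg adjusted p = 0.00359 and 0.152). The ET-3 call of Klhl33 was lost without the first DMSO library (adjusted p = 0.0764 in limma with Benjamini-Hochberg adjustment), without the first ET-3 library, where the change was -0.996, and with the treated pairs counted as 1 sample.

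Of the ASB genes, Asb2 (chr12:103321142-103356001), the Cul5 adaptor through which muscle cells degrade filamins, had values of 493 and 522 in the DMSO pair, 2 and 3 in the ET-3 pair, and 4 and 3 in the NT pair. In recovered reads, 957 reads in the DMSO libraries stood against 4 in the ET-3 pair and 9 in the NT pair, which is 201-fold (95% interval 86.5 to 817) and 146-fold lower (72.3 to 302, counting error only). Asb15 had values of 45 and 32 in the DMSO pair and 0 in all 4 treated libraries, and was at least 11.2-fold lower in the ET-3 pair and at least 15.7-fold lower in the NT pair. Asb16 dropped in the same way, from 57 and 65 to 5 and 2 in the ET-3 pair and to 3 and 5 in the NT pair. Asb14, which was not tested, read 4 and 7 in the DMSO pair and 0 in all treated libraries, and Asb10 had 4 reads in the DMSO libraries and 0 with the ligands, which is too few to compare. The remaining members of the group did not follow. Asb5 (chr8:54529580-54587875), a muscle gene that has been linked to satellite cells, was at 878 and 950 in the DMSO pair, 596 and 598 in the ET-3 pair, and 545 and 503 in the NT pair. The groups of Asb5 did not overlap, and its log2 fold changes of -0.61 ± 0.06 and -0.80 ± 0.06 passed the adjusted p but not the 2-fold threshold (limma, Benjamini-Hochberg adjusted p = 7.99e-06 and 1.28e-06). Averaged over all 6 libraries, Asb5 had the highest value per kilobase of the 96 members, at 368. Asb4 had 41 and 18 in the DMSO pair, 37 and 56 in the ET-3 pair, and 54 and 43 in the NT pair, so that the groups overlapped and the changes of 0.72 ± 0.36 and 0.80 ± 0.36 were not called. Without the first DMSO library Asb4 was called higher, at 1.29 and 1.37.

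Fbxo32 (chr15:58175879-58214932), the atrophy F-box protein whose gene is activated by FOXO factors, read 396 and 346 in the DMSO pair, 141 and 185 in the ET-3 pair, and 183 and 155 in the NT pair. It fell by 1.19 and 1.13 on the log2 scale, with no overlap between DMSO and treated libraries, and thus far less than Trim63, the atrophy gene it is usually named with. Without the first ET-3 library its change under ET-3 was -0.997 and missed the 2-fold threshold.

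**Figure D2:**
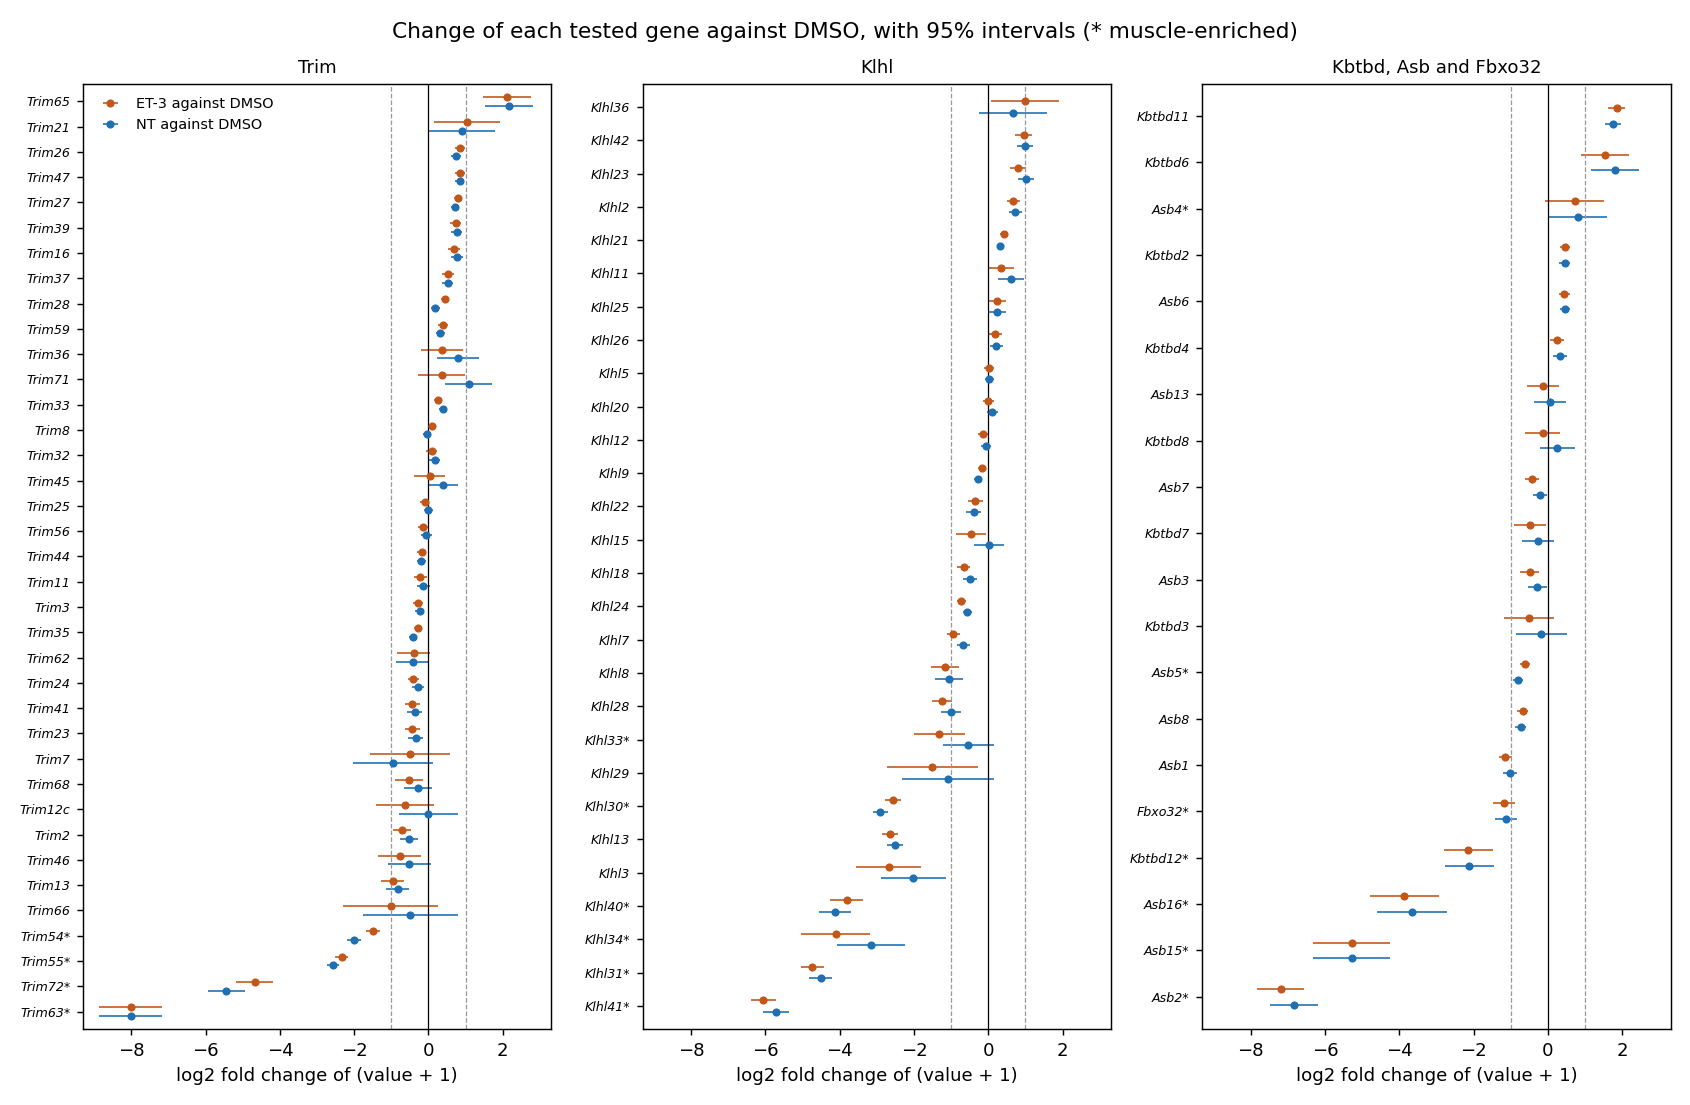
Log2 fold change of (value + 1) against DMSO with its 95% interval for each of the 85 tested members, in panels for Trim, for Klhl, and for Kbtbd, Asb and Fbxo32, with ET-3 and NT in separate colors. Dashed lines mark 2-fold and asterisks muscle-enriched members, most of which lie at the lower end of their panel, with Klhl33, Asb4 and Asb5 as exceptions and with Klhl13 and Klhl3, which are not on that list, among the lower Klhl genes.

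Outside the muscle-enriched list, 4 of the 68 tested members fell under both ligands, while 12.5% of all genes tested did. Klhl13 (chrX:23219271-23365082), which with Klhl9 and Klhl21 directs Cul3 to the mitotic kinase Aurora B, had values of 800 and 831 in the DMSO pair, 118 and 142 in the ET-3 pair, and 149 and 137 in the NT pair. This was 6.26-fold and 5.67-fold lower on the log2(value + 1) scale. The other mitosis-linked Kelch-like genes were not called, and of these Klhl9 read 777 and 776, then 667 and 711, then 656 and 628, and Klhl21 read 729 and 759, then 1032 and 982, then 947 and 924, in the order DMSO, ET-3, NT. In this group 1 of the 5 genes (20%) fell under each ligand and none rose. Of all genes tested, 14.9% fell under ET-3 and 13.2% under NT. The log2 fold changes of Klhl9 and Klhl21 under ET-3 were -0.17 ± 0.05 and 0.44 ± 0.05. With the adjusted p alone, 4 of the 5 were lower and 1 was higher under each ligand. Of all genes tested, 33.2% (ET-3) and 32.5% (NT) were then lower, and 30.6% and 29.7% higher. Klhl18 changed by -0.66 (ET-3) and -0.49 (NT). Klhl3, an adaptor for the WNK kinases, went from 18 and 25 to 2 and 3 in the ET-3 pair and to 4 and 5 in the NT pair. Klhl8 read 117 and 104 in the DMSO pair, 45 and 52 in the ET-3 pair, and 57 and 48 in the NT pair, and Asb1 read 345 and 335, then 150 and 157, then 177 and 159. In all 4 genes the treated libraries lay below both DMSO libraries. The NT call of Klhl3 was lost with the treated pairs counted as 1 sample. Under NT, Asb1 (-1.01) and Klhl8 (-1.06) lay close to the threshold. Both were no longer called without the first DMSO library, without the second NT library, or with libraries scaled to their total. Asb1 also lost its NT call with pseudocount 5. These 4 were named after their values were seen, as were the genes called under 1 ligand alone other than Klhl33, which is on the muscle-enriched list.

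The members that rose under both ligands were Kbtbd11, Trim65 and Kbtbd6. Kbtbd11 (chr8:15011025-15033333) had values of 131 and 103 in the DMSO pair, 417 and 424 in the ET-3 pair, and 402 and 386 in the NT pair. Its log2 fold changes were 1.85 ± 0.10 and 1.75 ± 0.10 (limma, Benjamini-Hochberg adjusted p = 1.78e-07 and 2.80e-07). Trim65 (chr11:116121846-116131128), a ligase that acts on the RNA sensor MDA5 and on the microRNA protein Tnrc6a, read 7 and 5 in the DMSO pair, 27 and 31 in the ET-3 pair, and 30 and 30 in the NT pair. It overlaps its neighbor Trim47 on the same strand over 225 bases of exon, and Trim47 read 229 and 228 in the DMSO pair, 409 and 419 in the ET-3 pair, and 420 and 398 in the NT pair. Kbtbd6 (chr14:79451835-79454818), a Cul3 adaptor for the Rac activator Tiam1, rose from 9 and 7 to 23 and 27 in the ET-3 pair and to 27 and 34 in the NT pair. Its paralog and neighbor Kbtbd7, 20799 bases away, did not rise with it and read 100 and 100 in the DMSO pair, 57 and 90 in the ET-3 pair, and 81 and 85 in the NT pair. Reads that fit both genes were left out by the authors, so the values of such pairs are uncertain. With the treated pairs counted as 1 sample, the ET-3 call of Kbtbd6 and the NT call of Trim65 were lost, at adjusted p = 0.0552 and 0.05005 (limma, Benjamini-Hochberg).

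Other members were called under 1 ligand alone. Klhl28 fell under ET-3 and had 277 and 233 in the DMSO pair, 98 and 117 in the ET-3 pair, and 121 and 133 in the NT pair, with log2 fold changes of -1.24 and -0.996, of which the second missed the 2-fold threshold. Klhl23 rose under NT, from 93 and 93 to 180 and 197, and read 161 and 166 in the ET-3 pair. Its call was lost without the second NT library. The other calls rested on low values. Trim71, the developmental regulator also called LIN41, read 16 and 14 in the DMSO pair, 19 and 20 in the ET-3 pair, and 40 and 27 in the NT pair, and its NT call was lost without the first NT library or without the second DMSO library. Klhl29 (15 and 27 in the DMSO pair, 13 and 3 in the ET-3 pair, 9 and 9 in the NT pair) and Trim21, the intracellular antibody receptor (6 and 10, then 12 and 24, then 15 and 16), were each called under ET-3 and lost that call in 5 of the 6 fits that leave out a library.

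**Figure D3:**
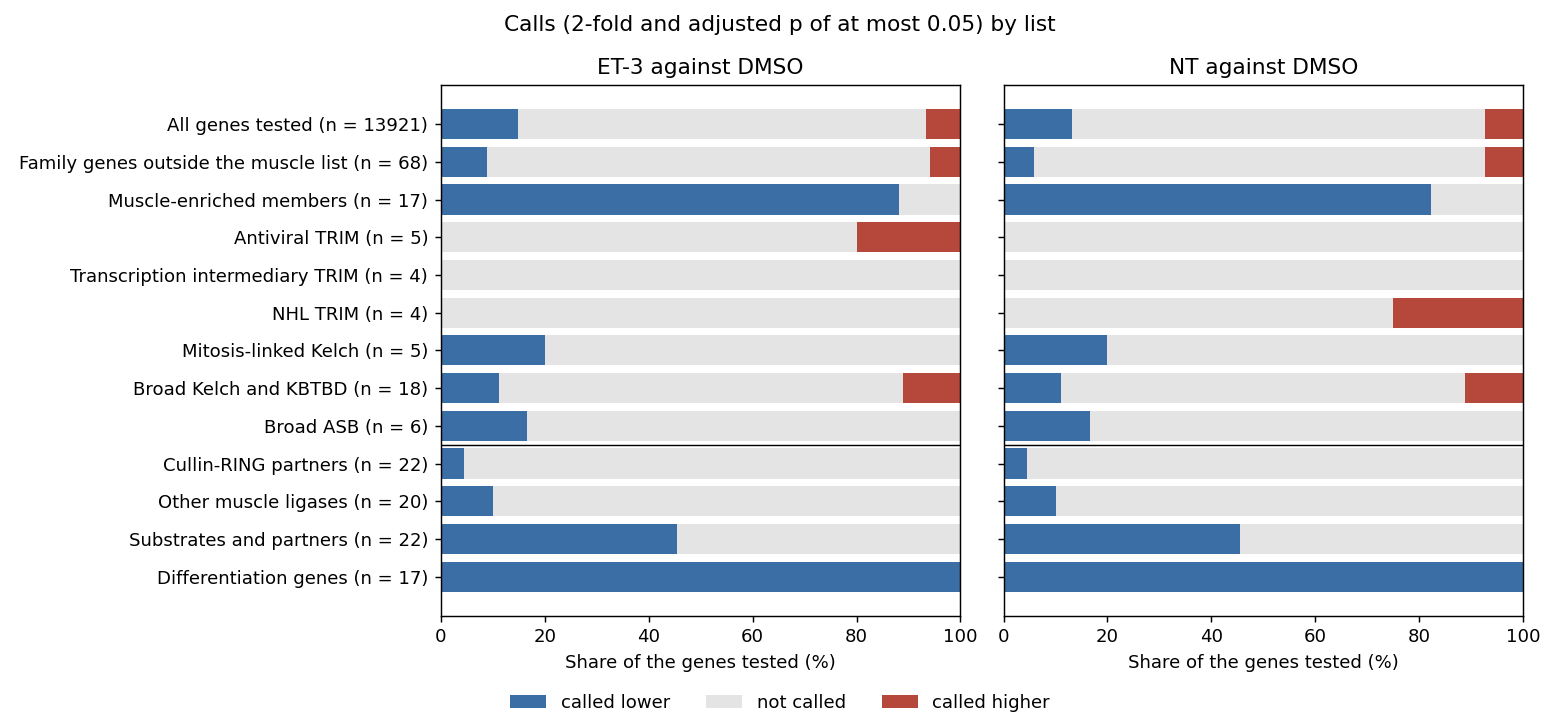
Share of the tested genes of each list that were called lower, not called or called higher under ET-3 (left) and NT (right), with the number of genes tested beside each name and non-members below the line. Muscle-enriched members were called lower in 88.2% and 82.4%, beside 14.9% and 13.2% of all genes tested.

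The remaining role lists were small. Beside their counts, 6.62% of all genes tested rose and 14.9% fell under ET-3, and 7.3% and 13.2% under NT. Of 8 measured TRIM genes linked to antiviral defense and interferon, 5 were tested, 1 (Trim21) rose under ET-3 and none was called under NT. The most abundant of them were Trim25, which ubiquitylates the RNA sensor RIG-I, and Trim26. Trim25 read 557 and 542 in the DMSO pair, 499 and 522 in the ET-3 pair, and 539 and 557 in the NT pair, and its changes of -0.11 and -0.00 were not called, whereas Trim26 was higher by 0.86 and 0.75 and passed the adjusted p alone. None of the 4 transcription intermediary factor genes, which encode chromatin corepressors, was called. In this group Trim28 (KAP1, chr7:12999114-13031035) read 1180 and 1273 in the DMSO pair, 1691 and 1630 in the ET-3 pair, and 1425 and 1364 in the NT pair, and Trim33 read 449 and 443, then 531 and 525, then 584 and 580. Trim66 had 194 in the first DMSO library and 36 in the second, with 37 to 63 in the treated libraries, and the 95% interval of its change under ET-3 reached from -2.30 to 0.25. Of the 4 NHL-domain genes, only Trim71 was called, and only under NT. Trim32, which is mutated in a limb-girdle muscular dystrophy, read 301 and 283 in the DMSO pair, 303 and 316 in the ET-3 pair, and 328 and 327 in the NT pair. It was higher under NT at the adjusted p alone. Neither of the 2 tested COS-box genes, Trim36 and Trim46, was called. Among 18 broadly expressed Kelch and KBTBD adaptors, 2 rose and 2 fell under each ligand, or 11.1% each way. Of these adaptors, Klhl7, Klhl24, Klhl2 and Kbtbd2 passed the adjusted p alone with changes under ET-3 of -0.94, -0.72, 0.67 and 0.46. Among 6 broadly expressed ASB genes, Asb1 fell and none rose.

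The order of the levels per kilobase of exon changed with the treatment. With DMSO, the highest mean values per kilobase were those of Trim72 (600), Asb5 (496) and Klhl41 (447), followed by Trim35, Trim54, Trim28 and Trim55, which lay between 292 and 312 and whose order is not read. With ET-3 the highest were Trim28 (399), Asb5 (324), Trim35 (255) and Klhl21 (253), and in the NT pair they were Trim28 (335), Asb5 (284), Klhl21 (235) and Trim35 (232). Trim35, a broadly expressed TRIM gene, read 1409 and 1477 in the DMSO pair, 1166 and 1193 in the ET-3 pair, and 1082 and 1061 in the NT pair. Trim8, a regulator of cytokine signaling, read 754 and 789, then 840 and 799, then 741 and 750, and its changes of 0.09 ± 0.05 and -0.05 ± 0.05 were not called. With each library scaled to its total, its change under NT had the opposite sign, at 0.06.

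Other genes of the same pathway were examined from lists. Of all genes tested, 6.62% rose and 14.9% fell under ET-3, and 7.3% and 13.2% under NT. Of 22 cullins and partners of cullin ligases, 1 fell under each ligand and none rose. This was Cand2, a muscle-enriched exchange factor for cullin ligases, at 1125 and 1180 in the DMSO pair, 468 and 443 in the ET-3 pair, and 460 and 460 in the NT pair. The cullins that the members join read 963 and 959 in the DMSO pair against 851 to 971 with the ligands for Cul3, and 813 and 820 against 627 to 699 for Cul5. Of 20 other ubiquitin ligases of muscle, 2 fell under each ligand, which were the F-box genes Fbxl22 and Fbxo40, while 18 were not called. Known substrates and partners of the muscle-enriched members fell in 10 of 22 cases under each ligand. Of the partners of Klhl40 and Klhl41, Lmod3 read 945 and 1048 in the DMSO pair and 8 to 23 with the ligands, and Neb read 9244 and 10073 in the DMSO pair and 635 to 928 with the ligands. Of the Asb2 substrates, Flnc fell by 1.48 and 1.47 on the log2 scale, while Flna had a log2 fold change of 0.39 under ET-3 and was not called. Foxo1 and Foxo3, which act on Fbxo32 and Trim63, had log2 fold changes of -0.60 and -0.74 under ET-3 and of -0.46 and -0.48 under NT. Both passed the adjusted p alone under each ligand and did not reach 2-fold. Foxo4 changed by -0.17 (ET-3) and -0.13 (NT). Of 13 tested relatives of these families with other symbols, Mid1 and Socs3 fell under both ligands and none rose. All 17 differentiation genes fell under both ligands, with medians of -8.20 and -6.53.

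**Figure D4:**
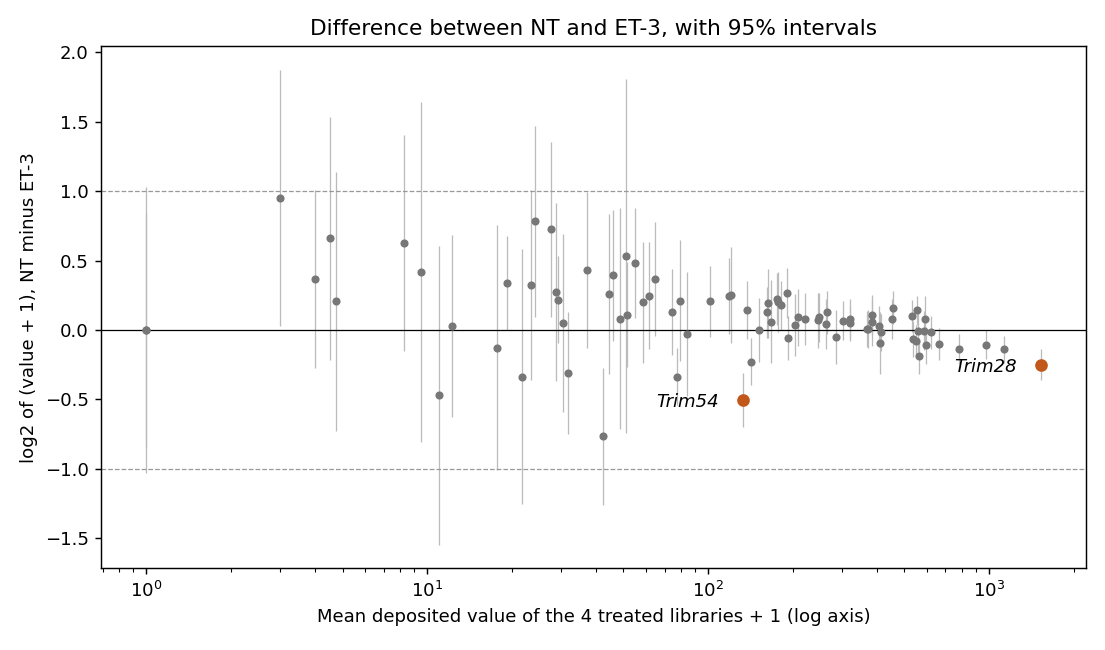
Log2 of (value + 1) in the NT pair minus that in the ET-3 pair and its 95% interval, against the mean value of the 4 treated libraries on a log axis, for the 85 tested members. Orange points mark Trim54 and Trim28, and dashed lines mark 2-fold, which no member passed.

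Between the ligands, no member differed by 2-fold at the adjusted p (0.079% of all genes tested did), 2 members passed the adjusted p alone (2.69% of all genes tested did), and 18 members, or 21.2%, had an unadjusted p under 0.05 in limma's test (19.9% of all genes tested did). Trim54 was lower in the NT pair than in the ET-3 pair by 0.50 ± 0.09 and Trim28 by 0.25 ± 0.05 on the log2 scale (limma, Benjamini-Hochberg adjusted p = 0.0379 and 0.0419). In both genes each NT library lay below each ET-3 library. The adjusted p of both lay between 0.145 and 0.459 in every fit that left out 1 library, whichever it was. After removal of a trend of fold change against reads per exonic base, the difference of Trim54 was -0.42 and that of Trim28 was -0.03, and the plot of NT minus ET-3 shows the members with high values below 0 and many with low values above it. Trim72 (-0.77), Klhl30 (-0.34) and Klhl7 (0.27) had the next smallest p and did not pass the adjustment. For 70 of the 85 members the 95% interval of the difference lay within 2-fold, and for the other 15, whose means over the 4 treated libraries ranged from 0 to 50.25 and which included Trim66 and Trim72, it reached past 2-fold.

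Some values rest on exons that other genes share. On the opposite strand, annotated genes overlap 27.6% of the exonic bases of Trim72, 26.6% of Trim54, 21.6% of Klhl40, 24.8% of Kbtbd11 and 20.5% of Klhl21. Of the exonic bases of Kbtbd4, Ptpmt1 alone overlaps 52.8%. The paper describes a stranded kit and the labels one that does not mark strand. The paper's methods leave out reads that overlap several genes. If strand was not marked, reads in these shared exons may therefore be missing from the values.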

How the data were processed

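RNA-seq covered 2 libraries each of MuSCs cultured in DMSO, ET-3 or NT, grouped by their labels. The paper's methods have the authors trim reads with Reaper, align them with STAR to GRCm38 (mm10) and assign them to exons with featureCounts. The submitters' processing notes name FastQC, Trimmomatic 0.38, STAR 2.7.7a, featureCounts 1.6.5 and DESeq2 1.30.0. The deposited values are a read signal. They behave as reads that were scaled within each library and then rounded to whole numbers. The scale of a library, fitted to how often each whole number occurs, ranged from 0.781 to 1.19, and a value divided by it is called a recovered read. A method for raw counts was therefore not used.

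The deposited signal was analysed as log2(value + 1), a scale that understates changes of low genes, for genes averaging 5 or more. limma 3.58.1 in R 4.3.3 (lmFit, contrasts and eBayes with trend) was fitted to all 6 libraries without a block, and Benjamini-Hochberg adjustment covered the 13921 genes in each of 3 comparisons. Calls required an adjusted p up to 0.05 and a 2-fold change. The script was tested on simulated data. Intervals of read ratios (95%, exact) and the floor of 3 reads per library cover counting error only. Python 3.11.15 with pandas 2.3.3, numpy 2.4.6, scipy 1.17.1, statsmodels 0.14.6 and matplotlib 3.10.9 served for tables and plots.

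The members and all gene lists were chosen with earlier results of these data known. Genes were named by these rules: every measured muscle-enriched member, the 8 with the largest change per direction among members called in both comparisons with DMSO, the 5 with the smallest p between the ligands, the 6 with the highest value per kilobase, members called in 1 comparison and opposite in sign in the other (none), and, of non-members, at most 5 per list and direction among those called in both. Other named genes were chosen after their values were seen. All 96 members were matched by Ensembl identifier to GENCODE vM21 for exonic lengths, and 95 had the same start and end there. Alternatives were no filter, pseudocounts of 0.5 and 5, scaling to library total or upper quartile, voom weights on recovered reads, a replicate block, a fit of 2 groups alone, treated pairs counted as 1 sample, no fold-change threshold, removal of a coverage trend (lowess span 0.3, against reads per base of exon), and fits without 1 library.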

Additional observations from a re-analysis of the deposited data

Results flagged for a closer look

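The test between the ligands marked 2 members. Trim54, which encodes a microtubule-binding muscle RING-finger ligase, differed by -0.50 (log2, NT minus ET-3), with values of 103 and 116 with NT and 160 and 151 with ET-3. Trim28, which encodes the corepressor KAP1, differed by -0.25, with values of 1425 and 1364 with NT and 1691 and 1630 with ET-3. The adjusted p (limma, Benjamini-Hochberg) was at most 0.05 in 5 of 16 alternatives for Trim54 and in 4 of 16 for Trim28, and it ranged over them from 0.0102 to 0.712 and from 0.00283 to 0.886. With all values corrected for a trend against reads per exonic base, the difference of Trim28 was -0.03. If the libraries of a pair came from 1 culture, a difference between cultures and a difference between ligands cannot be told apart.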

How the results depend on the processing

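Without a fold-change threshold, the members called under ET-3 became 20 higher and 42 lower, those under NT 24 higher and 35 lower, and those between the ligands 2. With each treated pair counted as 1 sample, 2 members rose under ET-3 and 3 under NT, and with pseudocount 5, 3 rose under NT. Without 1 library at a time, 3 to 5 members rose and 19 to 22 fell under ET-3, 4 to 7 rose and 16 to 20 fell under NT, and none was called between the ligands. In the alternatives the share of all genes called was not counted, except without a fold-change threshold, where it is given above. Of the 48 calls against DMSO, 37 held under all 16 alternatives, and the 11 others were lost under at least 1. Of 55 results for 25 named genes, 7 changed their call (Kbtbd6, Klhl33, Fbxo32, Klhl7 and Asb4 under ET-3, Trim65 and Asb4 under NT) and none turned its direction while called. Klhl7, at -0.94 under ET-3, was called without the second DMSO library, at -1.01. Same-numbered libraries did not deviate together, with correlations of -0.01, -0.07 and -0.02 between groups. As the treated pairs differed by about the sampling of reads, these correlations cannot tell whether the numbers pair the samples. The replicate block left the counts at 4 and 21 under ET-3, 5 and 18 under NT, and 0 between the ligands. Scaling to the library total moved the median of all genes to 0.08 under ET-3 and 0.10 under NT. Depth limits the 11 members that were not tested and low ones such as Trim21 and Klhl29, whose log2 fold changes had standard errors of 0.40 and 0.55.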
